A study of Mus musculus with 2 samples.

Results

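The JAK, STAT and SOCS genes carry cytokine and hormone signals from the cell surface to the nucleus and then switch them off. They were chosen by name as 10 genes, namely the kinases Jak1, Jak2 and Jak3, the transcription factors Stat3, Stat5a and Stat5b, and the inhibitors Socs1, Socs2, Socs3 and Cish. A probe set, the group of short probes that reports 1 transcript on an Affymetrix array, counted as a member when the platform annotation named 1 of these genes and no other. This gave 25 probe sets of 45037 that are not controls, and 10 genes of 18193 named by such probe sets.

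The samples were livers of male wild-type C57BL/6 mice aged 8 weeks. The sham pool came from 3 mice that had a sham operation. The renal ischaemia-reperfusion (RIR) pool came from 3 mice whose kidneys on both sides had 30 minutes of warm ischaemia and then reperfusion, which the treatment label calls acute kidney injury. Livers were frozen 24 hours after surgery, and 100 mg of liver from the 3 mice of a group went into 1 tube and onto 1 array. With 1 array per group there was no replicate error and no test, and every difference below describes these 2 pools. In such whole tissue, fewer cells of a type and less RNA per cell cannot be told apart.

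A cytokine or hormone joins its receptor chains, and the JAK kinases bound to them phosphorylate each other, the receptor and then a STAT protein, which pairs up and enters the nucleus. In liver, STAT3 is best known for the response to interleukin 6 and its relatives, which includes the acute phase proteins. STAT5A and STAT5B are best known for the response to growth hormone, and STAT5B shapes the male pattern of liver transcripts. SOCS proteins and CISH are induced by STATs and restrain the same pathway, so they form a feedback loop.

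All values are deposited signals on a linear scale. Differences are log2(signal + 16) of the RIR pool minus that of the sham pool, and folds are on the same scale, which understates the difference of dim probe sets. A signal is called bright here when it reaches the median of its array, 257.0 for sham and 254.1 for RIR, and dim otherwise. A probe set was used when it was bright on 1 array or both. This left 20 of the 25 probe sets, and all 10 genes. Stat5a and Jak3 passed on 1 array only, so for them the fold is given as a bound against the median of the dim array. The direction of a probe set bright on 1 array only follows almost wholly from this filter. The value of a gene is that of its probe set with the highest mean log2 signal. Measured gene differences of at least 2-fold were counted as higher or lower, also where only a smaller bound can be given, and probe sets of 1 gene past the filter disagreed over the whole array with an SD of 0.72 in log2 difference.

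The promoters of Socs3, Cish and Stat3 are shown because Socs3 and Stat3 were higher and Cish lower after RIR. STAT dimers bind sites of the form TTCNNNGAA, which reads the same on both strands. The sequences are the 250 bases before the RefSeq transcript start in GRCm38.p6, written 5′ to 3′ along the gene, and for Cish also the first 20 bases of the transcript. Capitals mark TTCNNNGAA. Socs3 and Stat3 lie on the minus strand of chromosome 11 and Cish on the plus strand of chromosome 9.
Socs3, chr11:117969367-117969616: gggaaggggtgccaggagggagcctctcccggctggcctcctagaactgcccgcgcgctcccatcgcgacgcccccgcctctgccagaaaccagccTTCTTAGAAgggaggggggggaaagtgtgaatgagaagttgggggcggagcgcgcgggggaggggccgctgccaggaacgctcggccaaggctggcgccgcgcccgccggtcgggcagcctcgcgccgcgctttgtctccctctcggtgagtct
Cish, chr9:107296409-107296678: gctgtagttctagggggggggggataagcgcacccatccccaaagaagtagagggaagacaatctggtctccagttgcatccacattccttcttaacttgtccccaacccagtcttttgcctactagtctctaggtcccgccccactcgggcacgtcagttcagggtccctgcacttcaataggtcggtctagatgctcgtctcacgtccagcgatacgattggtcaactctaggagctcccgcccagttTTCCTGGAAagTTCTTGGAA
Stat3, chr11:100939541-100939790: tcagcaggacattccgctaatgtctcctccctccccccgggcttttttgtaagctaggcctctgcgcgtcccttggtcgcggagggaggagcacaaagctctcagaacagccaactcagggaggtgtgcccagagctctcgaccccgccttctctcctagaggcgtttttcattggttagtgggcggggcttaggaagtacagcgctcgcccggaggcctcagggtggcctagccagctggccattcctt

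Of the 10 genes, 9 had a promoter window of 250 bases before to 50 bases after the start in the RefSeq table, with 11 windows in all. TTCNNNGAA was found in those of Socs3 and Cish only. The match in Socs3 was TTCTTAGAA and began at position -154 from the start. Cish held TTCCTGGAA from position 1 and TTCTTGGAA from position 12, a pair separated by 2 bases. Of all 32851 windows of this length, 8.3% held TTCNNNGAA. The wider spacing TTCNNNNGAA was found in no member window, against 6.95% of all windows, and the narrower TTCNNGAA only in that of Jak2, as TTCCCGAA at position -182, against 8.52% of all. Counted by gene over 27025 genes, the shares with TTCNNNGAA, TTCNNNNGAA and TTCNNGAA were 9.55%, 8.01% and 9.6%. These letters describe the window and show no bound site.

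Stat3 and the feedback inhibitors Socs2 and Socs3 were higher in the RIR pool, Stat5a and Stat5b were lower, and the broadly expressed kinases Jak1 and Jak2 and the STAT5-induced inhibitor Cish differed by less than 2-fold. Of the 10 genes, 4 were at least 2-fold higher (Stat3, Socs2, Socs3 and Jak3), against 8.71% of the 13117 genes past the filter. A further 2 were at least 2-fold lower (Stat5a and Stat5b), against 9.59% of all genes. Jak3 passed only through the RIR array and Stat5a only through the sham array, so the direction of both follows from the filter. Among the 8 members bright on both arrays, 3 were higher and 1 lower by 2-fold or more, against 5.14% and 6.17% of the 10923 such genes. These shares are 1143 genes higher and 1258 lower, and they turn to 756 and 2016 with the hybridisation controls as the reference, under which no member changed sign but Cish came to -1.06, so that 3 members were 2-fold lower. The median log2 difference was 0.70 over the 10 members and -0.01 over all genes. Counted by probe set, 9 of 20 were higher and 2 lower by 2-fold or more, against 10.4% and 10.8% of the 21003 named probe sets past the filter.

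**Figure D1:**
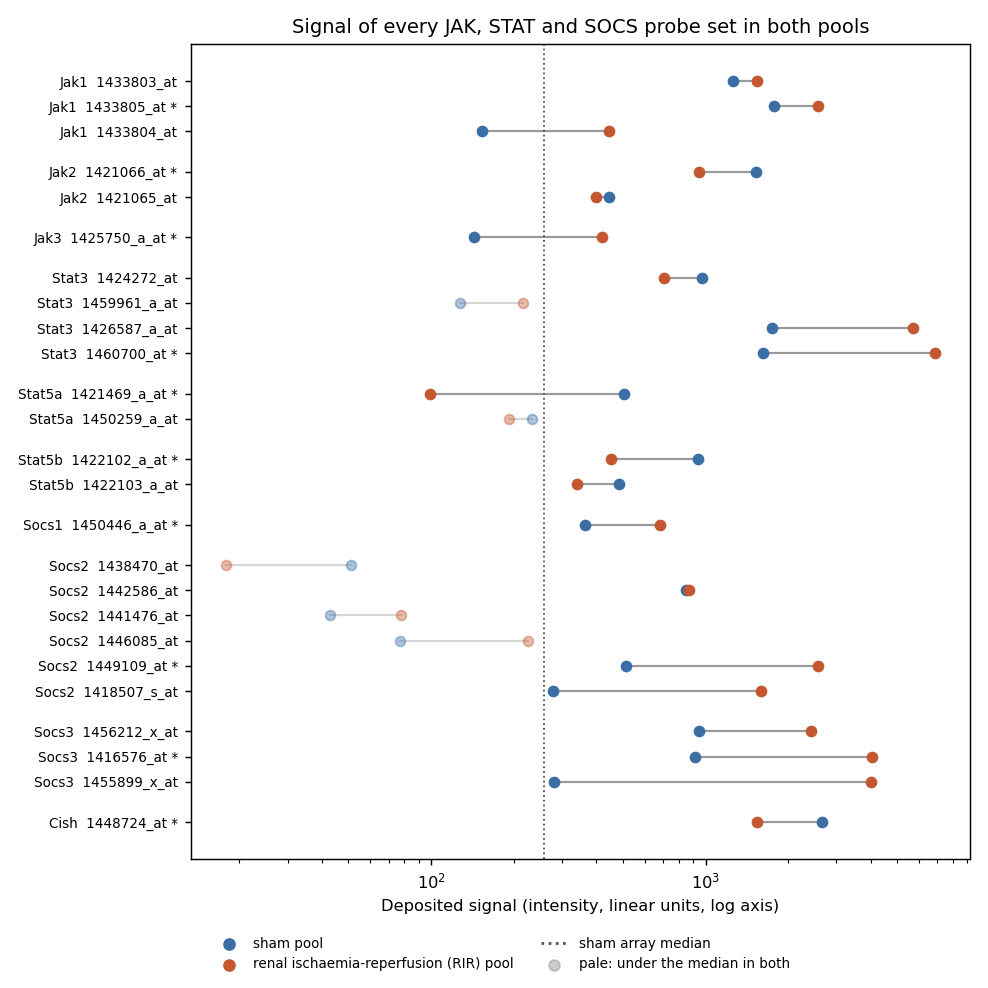
Deposited signal (log axis) of each of the 25 probe sets in the sham (blue) and RIR (orange) pools, grouped by gene. An asterisk marks the probe set that stands for its gene, the dotted line is the sham array median of 257.0, and pale points are the 5 probe sets dim on both arrays. The 2 brightest Stat3 pairs and all 3 Socs3 pairs run to the right, and all Stat5a and Stat5b pairs run to the left.

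STAT3, the factor of the interleukin 6 response, was higher by its brightest probe sets, with 1 usable probe set that went against them. The probe set 1460700_at read 1623.5 in sham liver and 6855.6 in RIR liver, a log2 difference of 2.07 or 4.19-fold. The probe set 1426587_a_at had signals of 1749.5 and 5722.6, a log2 difference of 1.70. Both thus put Stat3 more than 3-fold higher in the injured group. The probe set 1424272_at, also annotated to Stat3, had signals of 973.8 and 704.7, a log2 difference of -0.46. The last, 1459961_a_at, was dim on both arrays, with 127.7 and 216.1, and is given no fold. Why 1424272_at differed in sign from the others was not tested.

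The STAT5 genes, which pass on growth hormone and prolactin signals, were lower by each of their 3 usable probe sets. Stat5a had signals of 505.5 and 99.1 by 1421469_a_at, a log2 difference of -2.18. Since 99.1 is under the array median, the fold is given as at least 1.93-fold lower. This probe set passed only through its sham signal, so its direction follows from the filter. Its second probe set, 1450259_a_at, was dim on both arrays, with 233.2 and 192.3. Stat5b had signals of 935.5 and 453.9 by 1422102_a_at, a log2 difference of -1.02 (2.02-fold lower), which lies just past the 2-fold threshold. The other Stat5b probe set, 1422103_a_at, had 484.3 and 341.5, a log2 difference of -0.48, short of that threshold. Both genes are read only by _a_at probe sets, a suffix for probes shared by transcript variants of a gene.

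By the probe sets that stand for the genes, the log2 difference of Stat3 exceeded the mean of Stat5a and Stat5b by at least 3.05. This bound has the dim Stat5a signal raised to the array median and corresponds to a ratio of at least 8.29-fold between their folds. With the measured dim signal the gap was 3.67. Against Stat5a alone the gap was at least 3.02 and against Stat5b alone, bright on both arrays, 3.09. In all 9 pairings of a Stat3 with a Stat5 probe set past the filter, the Stat3 difference was the higher, although the lowest Stat3 value (-0.46) and the highest Stat5 value (-0.48) almost met. Pairings with Stat5a add little, because its probe set passed the filter only through the sham array. The Stat5a probe set dim on both arrays was left out of the count, and its measured difference of -0.26 lay above -0.46. With the probe set of smallest difference for each gene the gap was 0.87, and with probe sets averaged per gene 2.57, both with the measured dim Stat5a signal. Both gaps would be smaller with that signal raised to the array median. In the GRCm38.p6 annotation Stat5b, Stat5a and Stat3 follow each other directly on chromosome 11, so neighbouring genes stood on opposite sides of zero.

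**Figure D2:**
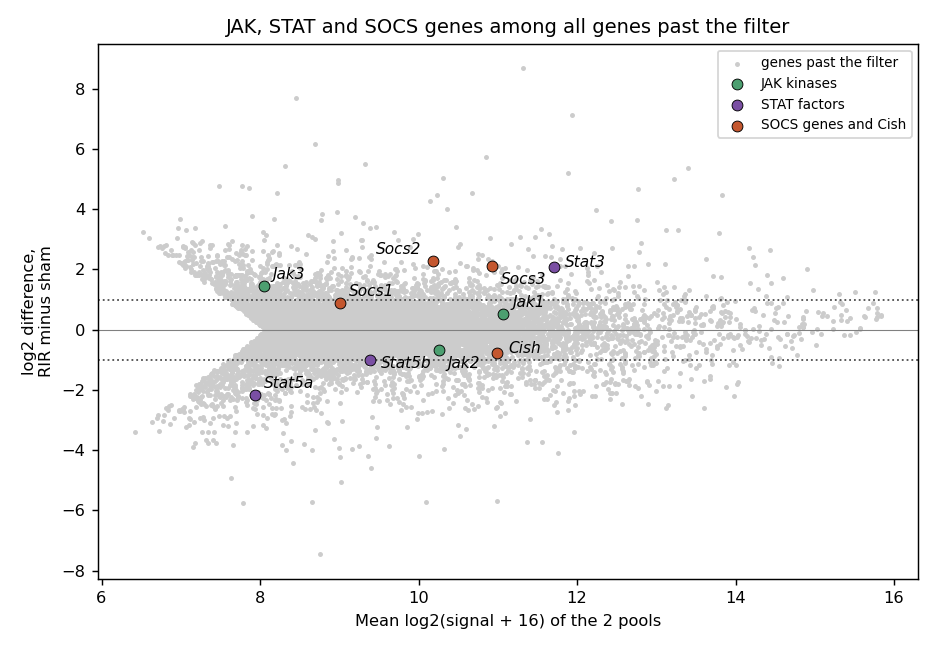
Mean log2 signal of the 2 pools (x axis) against the log2 difference, RIR minus sham (y axis), for the 13117 genes past the filter (grey) and the 10 members (coloured by family). Dotted lines mark 2-fold. Stat3 (2.07), Socs2 (2.29) and Socs3 (2.12) lie above the upper line, and Stat5a (-2.18 from a dim RIR signal) lies below the lower line with Stat5b (-1.02) close to it.

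Among the inhibitors, Socs3, which binds the interleukin 6 receptor chain gp130 and JAKs and is itself a STAT3 target, was higher by each of its probe sets. The probe set 1416576_at read 918.5 in sham liver and 4046.3 in RIR liver, a log2 difference of 2.12 (4.35-fold). The other probe sets, 1456212_x_at and 1455899_x_at, gave 1.34 and 3.75. These carry the suffix _x_at, which marks probes open to cross-hybridisation, so the spread in size is uncertain while the direction was shared. Socs3 was at least 2-fold higher in all 13 other ways of processing the arrays that gave it a value, with log2 differences of 1.34 to 2.403.

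Socs2, a restrainer of growth hormone receptor signalling that STAT5 is known to induce, was also higher. The probe set 1449109_at had signals of 512.0 and 2562.0, a log2 difference of 2.29 (4.88-fold). A second, 1418507_s_at, had 277.0 and 1596.4, a log2 difference of 2.46, and its suffix _s_at likewise marks possible cross-hybridisation. The third probe set past the filter, 1442586_at, had nearly equal signals of 849.4 and 869.0. The remaining 3 Socs2 probe sets were dim on both arrays and pointed both ways, from 51.1 and 17.9 in 1438470_at to 77.3 and 224.6 in 1446085_at. The Socs2 difference therefore rests on 2 of its 6 probe sets.

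Socs1, which inhibits JAK kinases directly and is best known for restraining interferon gamma signals, had signals of 362.8 and 681.4, a log2 difference of 0.88. Cish, the first described member of the family and a classical STAT5 target, had signals of 2654.2 and 1544.0, a log2 difference of -0.78. Neither reached 2-fold, although Cish did with the hybridisation controls as the reference (-1.06), and each was read by a single probe set. Cish thus lay on the same side as Stat5a and Stat5b, while Socs2 lay on the side of Stat3 and Socs3. Of the 8 inhibitor probe sets past the filter, the 7 of Socs1, Socs2 and Socs3 were higher at any size and that of Cish was lower. Several of these read the same gene, and 1442586_at of Socs2 stood at only 0.03. The median over all genes was -0.01, so either sign alone is common.

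Set against the mean of Stat5a and Stat5b, again with the dim Stat5a signal raised to the array median, the log2 difference was higher by at least 3.27 for Socs2, 3.10 for Socs3, 1.86 for Socs1 and 0.21 for Cish. Each bound in this paragraph covers the dim signal and not the choice of probe set. The gaps would be smaller with Socs2 by 1442586_at (0.03) or Stat5b by 1422103_a_at (-0.48). With Socs3 by 1455899_x_at (3.75) its gap would be larger. The mean over the 4 inhibitors was 1.13, which exceeded Stat5 by at least 2.11 (2.73 with the measured dim signal) and fell short of Stat3 by 0.94. With the probe set of smallest difference and the measured dim Stat5a signal the gap between the inhibitors and Stat5 was 1.70, and it would be smaller with that signal raised. These gaps compare differences between pools and not levels between genes, because signals of different probes cannot be compared.

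Jak1 and Jak2 differed less by the probe sets that stand for them. Jak1, which serves the interleukin 6 and interferon receptors, had signals of 1775.7 and 2563.8 by 1433805_at, a log2 difference of 0.53. Its other probe sets were also higher, with 0.29 for 1433803_at and, from a dim sham signal of 153.8, at least 1.69-fold for 1433804_at, whose measured log2 difference was 1.44. The direction of 1433804_at follows from the filter, which it passed only through the RIR array. Jak2, the kinase of the growth hormone receptor, had signals of 1528.9 and 948.1 by 1421066_at, a log2 difference of -0.68. Its second probe set, 1421065_at, had nearly equal signals of 443.5 and 399.5. The brightest probe sets of Jak1 and Jak2 thus lay on opposite sides of zero and short of 2-fold.

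Jak3, a kinase mostly of blood cells that pairs with the common gamma chain, had signals of 143.9 and 420.1 by 1425750_a_at. The sham signal is under the array median, so the measured log2 difference of 1.45 is given as at least 1.60-fold higher. This probe set passed only through the RIR array, so its direction follows from the filter. Of 3 markers of T cells and natural killer cells past the filter (Cd8a, Cd3e and Gzma), none differed by 2-fold, and the summed signal of 7 measured markers was 2622.2 in sham and 2865.0 in RIR. The markers Cd3g, Cd3d, Cd4 and Nkg7 were dim on both arrays. Neutrophil markers were higher in part, with S100a8 at least 5.21-fold and S100a9 at least 2.95-fold higher. Both passed only through the RIR array, so their direction follows from the filter. Mpo, Elane, Ngp and Csf3r differed by less than 2-fold and Camp was dim in both. The summed signal over 7 neutrophil markers was 4132.8 and 6191.3, and their part in the Jak3 value was not tested.

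Cell markers over the whole tissue gave the following frame for these genes. All 9 hepatocyte markers were bright on both arrays, with a median log2 difference of 0.01 and summed signals of 311264 and 405024. Of 8 Kupffer cell markers 7 were lower, 2 of them at least 2-fold, against 9.59% of all genes, with summed signals of 9158.2 and 5285.7. Among the 6 bright on both arrays, 1 was this much lower, against 6.17% of such genes. C1qa and Timd4 passed only through the sham array, so their direction follows from the filter. Of 7 pancreatic acinar markers, all were higher and 6 at least 2-fold, against 8.71% of all genes, with summed signals of 4278.7 and 10821.5. Among the 4 bright on both arrays, 3 were this much higher, against 5.14% of such genes. Of 3 bile duct markers past the filter all 3 were at least 2-fold higher, with summed signals of 653.1 and 2453.3 and Krt7 dim on both arrays. Only Sox9 of these 3 was bright on both arrays. Krt19, Epcam, Cpa1, Cpb1 and Ctrb1 passed only through the RIR array, so their direction follows from the filter. B cell, monocyte, endothelial and stellate markers had median log2 differences of -0.07, -0.29, -0.29 and -0.44. Their summed signals were 1508.3 and 1425.0, 2882.3 and 2681.2, 6055.4 and 6811.8, and 8170.7 and 10902.4. The endothelial and stellate sums thus ran against their medians, with Lyve1 (326.8 and 2740.5) and Dcn (3967.7 and 8037.4) higher by 2-fold or more and Clec4g and Lrat lower. The part of these shifts in the member values was not tested.

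**Figure D3:**
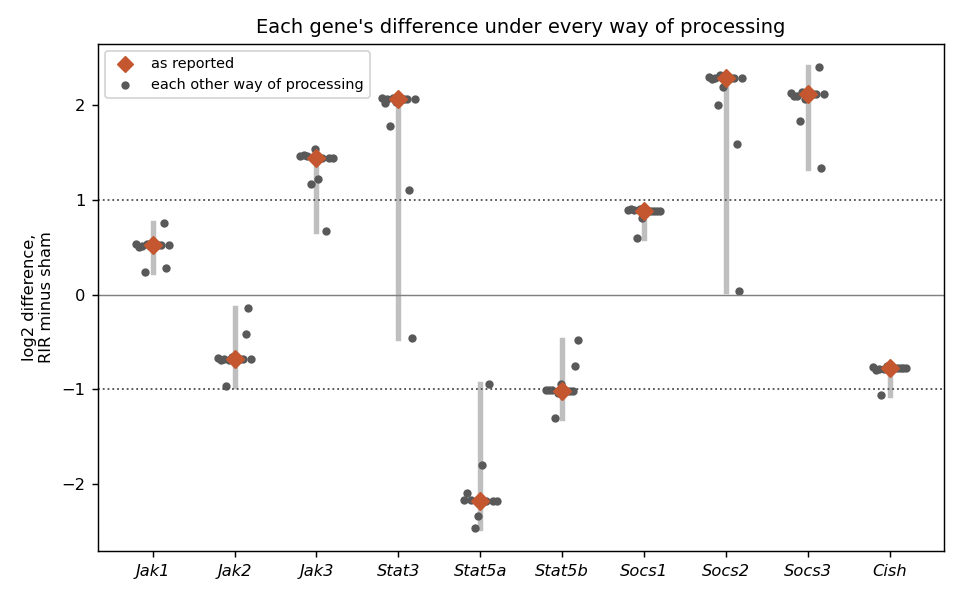
Log2 difference, RIR minus sham (y axis), of each member as reported (orange diamonds) and under each other way of processing that gave it a value (grey points; the bar spans them all). Dotted lines mark 2-fold. Stat3 spans -0.46 to 2.08 and Socs2 0.03 to 2.32, each reaching its lowest value with the probe set of smallest difference, while Socs3 stays between 1.34 and 2.403.

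Upstream of the kinases, receptors were described from a list of 29 chains, of which 20 were past the filter. Of these, 3 were higher by 2-fold or more and none lower by as much, against 8.71% and 9.59% of all genes, with a median log2 difference of 0.15 that turned to -0.14 with the hybridisation controls as the reference. Osmr, the oncostatin M receptor, which signals through STAT3, had signals of 64.8 and 1025.2, at least 3.81-fold higher. Lepr, the leptin receptor, had signals of 323.0 and 3028.9, a log2 difference of 3.17. Its other 3 usable probe sets had dim sham signals of 21.5 to 125.9 and passed the filter only through the RIR array. That they were higher thus follows from the filter. The third was the interleukin 4 receptor chain Il4ra, with 286.9 and 1010.1, named here after its value was seen; its probe sets past the filter differed in sign.

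The receptors of the interleukin 6 family differed in direction. Il6st, which encodes the shared chain gp130, had signals of 1225.9 and 1537.3, a log2 difference of 0.32, and Il6ra, the interleukin 6 receptor itself, 1680.1 and 1289.3, a difference of -0.38. Lifr, the leukaemia inhibitory factor receptor, had signals of 6137.5 and 3419.0, a difference of -0.84 and the lowest of the list. All 3 of its usable probe sets were lower, 1 of them with a dim RIR signal of 73.6, so that its direction follows from the filter. Next lowest was Ghr, the growth hormone receptor that activates JAK2 and STAT5, with signals of 6605.2 and 4154.3. Its log2 difference was -0.67 by the brightest probe set and -2.06 by the lowest, and all 3 were lower.

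Of 19 ligands on the array, 10 were dim on both arrays, among them Il6 with 127.6 and 165.4. Of the 9 past the filter, Csf3 (at least 1.39-fold higher, signals 94.7 and 363.7) and Lif (at least 1.62-fold lower, signals 422.8 and 198.0) were the only ones with a measured difference of 2-fold, near the 8.71% and 9.59% of all genes. Il10 was at least 1.59-fold lower, and Il21 only just passed the filter (142.6 and 257.4). The median of the 9 was 0.01.

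Among other genes of the same 3 families, 1 of the 7 past the filter was at least 2-fold higher and none lower by as much, against 8.71% and 9.59% of all genes. It was Socs6, which acts on insulin and receptor kinase signals, had signals of 234.6 and 1296.7 by 1450129_a_at, at least 4.81-fold higher. Its other probe set past the filter, also dim in sham, had 172.1 and 313.8. The remaining 6 past the filter were short of 2-fold. They included Stat2 (0.79), a factor of the type I interferon response, Stat6 (-0.37), which answers interleukin 4, Socs7 (-0.26) and the kinase Tyk2 (-0.13). The list median was 0.04 over 7 genes, and Stat4 was dim on both arrays. Prlr was not analysed here.

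Among 12 phosphatases, PIAS proteins and adaptors, 2 were higher by 2-fold or more, namely Ptpn2 and Ptpn11, and none lower by as much. The shares of all genes were 8.71% and 9.59%. All 12 were bright on both arrays, and among all such genes the shares were 5.14% and 6.17%. Ptpn2, the phosphatase TC-PTP that acts on JAK1 and STAT3, had signals of 1863.5 and 5064.3, a log2 difference of 1.43. Ptpn11, the phosphatase SHP2, had signals of 993.0 and 2107.8, a difference of 1.07. Ptpn2 was higher by every probe set past the filter, each bright on both arrays. The other Ptpn11 probe sets past the filter, 1421196_at (143.1 and 325.0) and 1427699_a_at (79.0 and 287.9), were dim in sham. They passed only through the RIR array, so their direction follows from the filter. The lowest were the ubiquitin ligase Cbl (-0.46) and Ptprc (-0.18), the phosphatase CD45 of blood cells. The list median was 0.25, and -0.04 with the hybridisation controls as the reference. The 6 elongin, cullin and RING partners through which SOCS proteins mark their targets for breakdown were all short of 2-fold, from Cul5 (-0.58) and Cul2 (-0.35) to Rnf7 (0.63) and Eloc (0.71), with a median of 0.07.

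Downstream, genes known as STAT3 targets were mostly higher and growth hormone and STAT5 targets mostly lower. Of 31 STAT3 targets, 14 were higher by 2-fold or more and none lower by as much, against 8.71% and 9.59% of all genes, with a median log2 difference of 0.88. Among the 29 bright on both arrays, 12 were this much higher. Lcn2, lipocalin 2, had a dim sham signal of 110.0 against 51457.8 and was at least 188.5-fold higher. Saa2, a serum amyloid A gene, had signals of 316.5 and 46199.7 by an _x_at probe set, a log2 difference of 7.12. Junb, an AP-1 factor, was at least 7.93-fold higher, from 144.3 to 2149.3. The kinase Pim1 (519.1 and 987.8, log2 difference 0.91) was short of 2-fold and Myc (0.10) nearly equal. Of the 4 lower members, Vegfa (-0.78) and the survival factor Bcl2l1 (-0.42) were the lowest, and probe sets of each differed in sign; the others, Ccnd1 (-0.14) and Fos (-0.04), are named after their values were seen. Many of these genes answer other signals of inflammation too, and the list was drawn up with earlier results of these arrays known, so its direction is no independent evidence.

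Of 11 measured STAT5 targets of male liver, 6 were lower by 2-fold or more and none higher by as much, against 9.59% and 8.71% of all genes, with a median log2 difference of -1.005. Hsd3b5, a male-specific steroid dehydrogenase, was at least 21.2-fold lower, and Igfals, which stabilises IGF1 in plasma, went from 3004.1 in the sham pool to 714.1 (-2.05). Igf1, the main growth hormone target, had a difference of 0.21, with probe sets that differed in sign, and the liver factor Onecut1 stood at 0.40. Bcl6, a repressor that opposes STAT5 at shared sites and that growth hormone is known to lower rather than raise, had signals of 786.3 and 198.8 and was at least 2.97-fold lower. Without Bcl6, a count made after its value was seen, 5 of 10 were this much lower, with a median of -0.79. Among the 9 bright on both arrays, 4 were. This list too was drawn up with earlier results of these arrays known, so its direction is no independent evidence.

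Female-biased genes, which growth hormone pulses and STAT5B hold low in males, were mostly near equal or dim. Of 10 on the array 4 were dim on both arrays, and of the 6 past the filter none was 2-fold higher and 1 was 2-fold lower, near the 8.71% and 9.59% of all genes, with a median of 0.26. Cyp2b13 was at least 1.04-fold higher, Acot3 stood at 0.42, from an _s_at probe set, and Cyp2b9 at -0.34. The 2-fold lower gene, Abcd2, went from 272.4 to 21.7, so only a bound of 1.07-fold can be given.

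Of 12 interferon responsive genes past the filter, 10 were lower at any size, with a median of -0.57 against -0.01 over all genes. By 2-fold or more 2 were lower and none higher, near the 9.59% and 8.71% of all genes, and of the 9 bright on both arrays 0 reached 2-fold in either direction. Irf9, a partner of STAT2 in the type I interferon response, was at least 1.80-fold lower and Gbp2, a guanylate-binding protein, at least 1.25-fold lower. Ifit3 (at least 1.31-fold higher) and Irf8 (0.16) were the highest. Irf9 and Gbp2 passed only through the sham array and Ifit3 only through the RIR array, so their directions follow from the filter. These 3 lists thus had medians on different sides of that of all genes (-0.01), with STAT3 targets above it and STAT5 targets and interferon responsive genes below it.

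**Figure D4:**
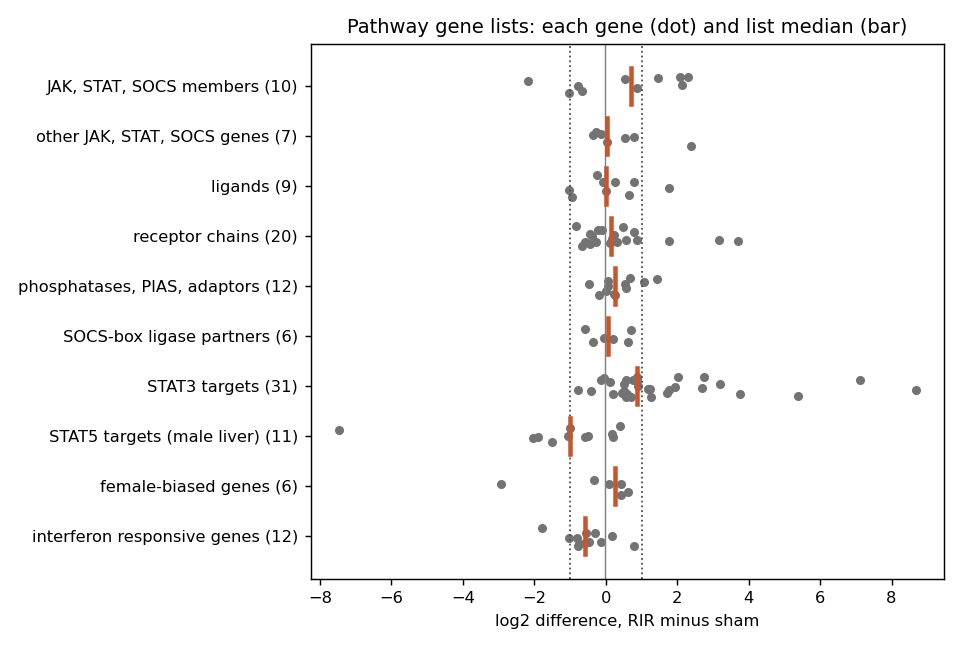
Log2 difference, RIR minus sham (x axis), of each gene past the filter (grey dots) in 10 gene lists (y axis, number of genes in brackets), with the list median as an orange bar. Dotted lines mark 2-fold and the thin line the median of all genes. The STAT3 target median is 0.88 and the STAT5 target median -1.005.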

How the data were processed

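Liver RNA of 1 sham pool and 1 renal ischaemia-reperfusion pool, grouped by the treatment label, was measured on 1 Affymetrix array each. Per the labels' protocols, 6 ug of Trizol-extracted RNA gave biotin-labelled cRNA. The values deposited by the authors are 1 intensity per probe set on a linear scale. Their trimmed mean (2% off each end) was 500.0 on both arrays, so they were scaled before deposit. The summarising software, any background correction and any filter remain not given in the sources used here.

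Of 45101 probe sets, 64 controls were left out. Platform annotation named 1 gene for 34945 probe sets, several for 932 and none for 9160. Symbols were updated through the Entrez ID for 34741. No build applies to the probe sets, and promoter sequences are from RefSeq in GRCm38.p6. Python 3.11.15 with numpy 2.4.6, pandas 2.3.3 and statsmodels 0.14.6 was used. The steps from signals to gene differences were tested on simulated arrays at the main settings. The bounds, gaps, lists, promoter search and alternative settings were not tested in this way. With 1 array per group, no p-value was computed. The number of arrays limits the precision.

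The members and lists were chosen with earlier results of these data known. Genes named beyond the members are up to 2 highest and 2 lowest of each pathway list and a fixed panel of 17. Alternatives covered scaling, pseudocount, filter, choice of probe set and threshold.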

Additional observations from a re-analysis of the deposited data

How the results depend on the processing

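Of 13 alternatives for scaling, pseudocount, filter and probe set, the choice of probe set was 1 of several that moved results. With the probe set of smallest difference, Stat3 reversed to -0.46, the Stat3 gap to Stat5 was 0.87, the inhibitor gap to Stat5 1.70, the median of the members -0.056, and 2 members were at least 2-fold higher and 1 lower. With probe sets averaged per gene the Stat3 gap was 2.57 and 1 member was 2-fold lower. With probe sets of suffix _x_at, _s_at and _a_at left out, Stat5a, Stat5b, Socs1 and Jak3 had no value, so no gap could be computed, the median was 1.30 and 0 members were 2-fold lower. Stat5b lies at the threshold and Stat5a is dim after renal ischaemia-reperfusion, so 1 member was 2-fold lower with a pseudocount of 64, with dim signals raised to the median, with both signals required to be bright and with a filter at the 75th percentile. With dim signals raised, the Stat3 gap was 3.05, the inhibitor gap 2.11, Stat5a -0.95 and Jak3 0.68. Thresholds of 1.5-fold and 3-fold gave 4 and 1 lower members, against 2.

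The 18 bacterial hybridisation controls were all higher in the renal ischaemia-reperfusion pool. With them as the reference every difference shifts by -0.28, no member changed sign, Cish reached -1.06 so that 3 members were 2-fold lower, and 756 genes were at least 2-fold higher and 2016 lower against 1143 and 1258, so higher genes were 27.3% instead of 47.6% of those called. The medians of receptors, phosphatases, STAT3 targets, STAT5 targets and interferon responsive genes were then -0.14, -0.04, 0.59, -1.29 and -0.86. Over all genes these counts were 682 and 797 with the 75th percentile filter, 563 and 676 with both signals bright, 733 and 869 with dim signals raised, 2449 and 2536 at 1.5-fold and 472 and 589 at 3-fold. For log2 differences, gaps and medians, a shift was a change above the SD between probe sets of a gene (0.72). It was scaled to the number of genes and was used since no replicate spread exists. This SD cannot apply to counts of genes past 2-fold, whose rule is not given here. Of the values of single members, pathway lists and counts over all genes under the alternatives, 246 were labelled as not shifted, 22 as shifted and 1 as reversed. No paired analysis was possible because each group has 1 array, and for the same reason no replicate could be left out. Signals under the array median give only bounds.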

Other observations

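A further 2 probe sets name Jak3 together with Insl3, a hormone gene of the testis, and were left out of the members because their source cannot be told. The probe set 1423021_s_at read 1767.8 in sham and 1036.9 in RIR liver, and 1427092_at read 34.5 and 32.0. The brighter one was thus lower after RIR, against the higher signal of the probe set that names Jak3 alone.

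Within the ligand list, Clcf1, a cytokine of the interleukin 6 family that signals through gp130, is named after its values were seen. Its brightest probe set had signals of 804.9 and 973.3, a log2 difference of 0.27. Its other probe sets, 1437270_a_at and 1437271_at, had dim sham signals of 56.9 and 27.0 and signals of 411.5 and 384.8 after RIR.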
